A study of Danio rerio with 12 samples.

Results

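Regions of open chromatin that were called in both GFP-positive cell fractions of the zebrafish embryo, and in neither GFP-negative fraction, are described here. They were chosen by the peak calls of the 4 lists, as the peaks of the double positive list on chromosomes 1 to 25 that overlapped a peak of the GFP only list by 1 bp or more and overlapped no peak of the mCherry only or the double negative list. There were 2154 such regions among the 90687 peaks of the double positive list on these chromosomes (2.38%, Wilson 95% interval 2.28 to 2.48). Since these calls selected the regions, their presence or absence in a list is not a finding, and the values at their summits are given as a description with no test.

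All embryos were of wild-type genotype, carried the transgenes kdrl:mCherry and sele:GFP, received no treatment and were taken at 72 hours post fertilisation. Whole embryos were dissociated and 12000 to 50000 cells per fraction were sorted by the reporters and subjected to ATAC-seq, in which the transposase Tn5 cuts and tags accessible DNA. The double positive fraction carried mCherry and GFP, the mCherry only fraction lacked GFP, the GFP only fraction lacked mCherry, and the double negative fraction lacked both. There were 3 samples per fraction, 12 in all, but 1 peak list stood for the 3 samples of a fraction, and no difference below has a replicate error and no p-value was computed. The gates took any cell of the embryo by its reporters, and a reporter can be on in cells where the gene it stands for is off. In such bulk fractions, fewer cells with a region open and less opening per cell cannot be told apart.

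The kdrl product is a VEGF receptor of blood vessels, and the gene's regulatory DNA drives expression in vascular endothelium. The gene sele encodes E-selectin, through which endothelial cells capture passing blood cells. Accessible DNA marks promoters, enhancers and other sites where nucleosomes give way to regulatory proteins, and a region open in both GFP-positive fractions is open with and without the endothelial reporter. No gene, exon or intron is assigned to any region here, since no annotation of the danRer7 build was used.

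The regions gave weak signal in both lists. A median of 16 reads lay at the double positive summit (quartiles 14 and 19, range 10 to 163), against 26 over the whole double positive list. In the GFP only list the overlapping peak, taken as the taller where more than 1 overlapped, had a median of 19 reads (quartiles 16 and 23, range 11 to 182), against 25 over that whole list. Of the 2154 regions, 1253 had 20 reads or fewer in both lists, with no share over other peaks given to set beside this count. Weak signal was not particular to the set. The median was also 16 double positive reads in peaks shared with double negative alone, in peaks of double positive alone and in peaks of all lists but mCherry only.

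To place the lists on 1 scale, height was taken as the reads at a summit divided by the lowest expected background of its list, which was 3.63 reads for double positive and 4.26 for GFP only. Median height was 4.41 in double positive and 4.46 in GFP only, compared with 7.16 and 5.86 over the whole lists. Only 43 regions (2.00%) reached a height of 10 in double positive, where 33.3% of all double positive peaks did. A height of 20 was reached by 4 (0.186%), against 11.5%. Of the 2145 GFP only peaks that served as partners, 110 (5.13%) reached a height of 10, against 23.2% of all GFP only peaks. In 7 of them (0.326%) the height was 20 or more, against 5.58%. The authors' fold over local background was 5 or more in 53 regions in double positive (2.46%, against 42.4% of the whole list). It was so in 174 partner peaks (8.11%, against 35.1% of the GFP only list). The authors' −log10 q was 5 or more in 599 regions (27.8%) in double positive, against 74.2% of the list, and under 2 in 63 (2.92%), against 0.799%. A double positive height of 10 was reached by 2.00% of the regions and by 2.13% of the peaks shared with double negative alone. It was reached by 4.52% of the peaks of double positive alone and by 2.57% of those of all lists but mCherry only. The rule used the same peak calls, so nothing is read from these shares.

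The share of double positive peaks that belonged to the set fell with the reads at the summit. It was 7.83% (7.31 to 8.39) of peaks with 10 to 14 reads, 4.68% of those with 15 to 19, 1.65% with 20 to 29 and 0.424% with 30 to 49. With 50 reads or more it was 0.0741%, or 15 of 20235 peaks. The peaks shared with double negative alone fell likewise. They numbered 788, 952, 394, 108 and 15 in these bins, against 750, 945, 365, 79 and 15 regions of the set. Peaks of all 4 lists were 30.8% of double positive peaks with 10 to 14 reads and 79.1% of those with 30 or more, leaving aside chromosome 4 beyond 25 Mb. Both sets leave out such peaks by rule, so nothing is read from their falling shares. In the GFP-negative lists the weakest peaks over the lowest background had 11 reads in mCherry only and 11 in double negative. The median double positive height of the regions would come to 19.6 reads over the mCherry only background and 19.7 over the double negative background. That height is of peaks chosen because they were called, and the 11 reads are those of peaks over the lowest background alone. The reads that these lists had inside the regions were not analysed here, and why no peak was called there was not tested.

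**Figure D1:**
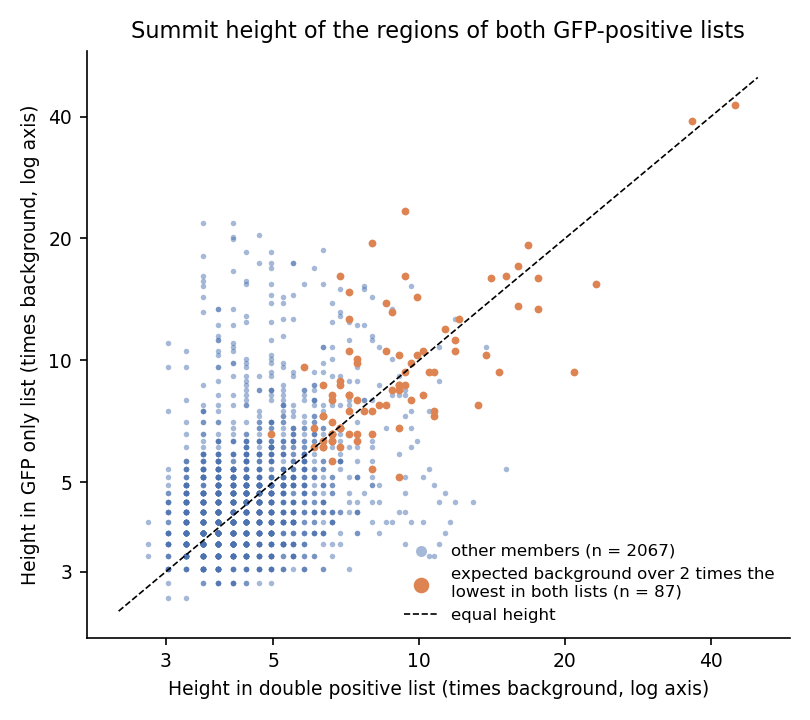
Summit height of each of the 2154 regions in the double positive list (horizontal, times background) and in the GFP only list (vertical), both on log axes, with a dashed line at equal height. Many points coincide because reads are whole numbers. The quartiles of height are 3.86 and 5.23 in double positive and 3.75 and 5.39 in GFP only. The 87 regions with a raised expected background in both lists (orange) hold the highest values along the diagonal.

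Heights in the 2 GFP-positive lists were about equal at the median. Every region had to be called in both lists. Median reads of 16 and 19 stood near the fewest in the regions, 10 and 11, so nothing is read from the near equality. The median ratio of GFP only to double positive height was 1.01 (quartiles 0.852 and 1.21), and GFP only was the higher in 1121 regions (52.0%). In 84 regions the GFP only height was 2 times the double positive height or more, while the opposite held in 25. Among the 10 regions of largest geometric mean height, double positive was the higher in 4. In 44 regions GFP only reached a height of 10 with double positive under 5, and in 11 regions this was the other way round. The same ratio had a median of 0.877 over 5156 regions of all reporter-positive fractions and 0.972 over 56302 regions of all 4 lists. These medians depended on signal. Among peaks with a double positive height from 3.5 to under 6 they were 1.002 for the regions of both GFP-positive lists (n = 1645), 1.06 for all reporter-positive fractions (n = 2252) and 1.25 for all 4 lists (n = 14687). GFP only was the higher in 50.8%, 59.9% and 74.6% of these, in the same order. This range was set on double positive height alone, so the classes are not matched in GFP only signal. Over all heights it was the higher in 38.0% of peaks of all reporter-positive fractions and 46.3% of peaks of all 4 lists. Counts of heights far apart are not given for other classes, so nothing is read from them. The GFP only height is also that of the partner peak, whose summit lay over 300 bp away in 149 regions. More than 1 region can share a partner peak. Across the 2154 regions the reads in both lists had a Spearman rho of 0.41 and the folds 0.27, while the expected backgrounds had 0.66. The points share the same libraries, the call threshold and the local background, so these are descriptions only.

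Ranked by the geometric mean of height in both lists, the leading regions lay where the expected background was high. The region chr8:36434843-36435050 had 163 reads in double positive (exact Poisson 95% interval 139 to 190) and 182 in GFP only (157 to 210). Its expected background was 93.8 and 108 reads, so the fold was 1.73 and 1.67. The region chr8:35934691-35934924 had 133 and 166 reads, with folds of 1.54 and 1.67. Both regions on chromosome 8 had peaks of the lists they are absent from close by. The nearest mCherry only peak to the former lay 371 bp away and had 200 reads, and the nearest double negative peak lay 394 bp away and had 184. For the latter these peaks lay at 434 and 421 bp, with 172 and 169 reads.

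Most of the other leading regions by height also had many reads and a modest fold, with 2 exceptions in GFP only. The region chr4:28183754-28184092 had 84 double positive and 66 GFP only reads, at folds of 2.26 and 1.65. On chromosome 8 again, chr8:35469023-35469293 had 61 and 82 reads at folds of 1.76 and 1.92. Then came chr24:12415287-12415588 with 64 and 68 reads, chr25:35459505-35459704 with 58 and 73, and chr21:41576209-41576423 with 55 and 69. The last 3 of the 10 were chr16:20324174-20324383 with 64 and 57 reads, chr25:23721695-23721923 with 51 and 68, and chr23:21125602-21125893 with 34 and 100. Over these 10 regions the fold ranged from 1.54 to 3.29 in double positive and from 1.65 to 6.36 in GFP only. The 2 with a GFP only fold over 5 were chr25:23721695-23721923 at 5.88 and chr23:21125602-21125893 at 6.36. The partner peak of the latter also overlapped both GFP-negative lists. Its GFP only summit lay 464 bp from the double positive summit and outside the region. Of the 19 regions with a height of 10 or more in both lists, 16 had an expected background over 2 times the lowest in both. Over all regions 87 had it in both, and 129 had it in double positive (5.99%, against 18.3% of the whole list). No share over all peaks of such height in both lists is given to set beside the 16 of 19, so nothing is read from it.

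Ranked by the geometric mean of fold instead, a ranking added after these values were seen, 10 different regions led, and none was shared with the ranking by height. They lay on 10 chromosomes, with an expected background of 3.63 to 6.20 reads in double positive. The leading one, chr13:44251592-44251969, had 26 double positive reads (17.0 to 38.1) at a fold of 5.83 and 53 GFP only reads (39.7 to 69.3) at a fold of 10.3. The nearest mCherry only peak lay 7022 bp away and the nearest double negative peak 13544 bp away. The region chr16:25554363-25554741 had 50 and 46 reads at folds of 7.08 and 7.30, and was the only one of the 10 besides the next in which double positive had the more reads. The region chr3:22813314-22813653 had 35 and 34 reads, but the 2 summits were 397 bp apart and the GFP only summit lay outside the region. Its partner peak also overlapped peaks of the GFP-negative lists, which lay 87 and 84 bp from the region itself.

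In the other regions of that ranking GFP only was the stronger. The region chr9:43368955-43369174 had 18 double positive and 74 GFP only reads, the latter at a fold of 12.5. The region chr24:30781138-30781359 had 18 and 72 reads, chr11:11677778-11677997 had 19 and 59, and chr20:34028406-34028913 had 24 and 59. Likewise chr4:7496522-7496874 had 25 and 64 reads, chr8:19667387-19667719 had 23 and 80, and chr19:23741462-23741813 had 17 and 87. For chr19:23741462-23741813 the intervals were 9.90 to 27.2 and 69.7 to 107, and the GFP only height was 4.36 times the double positive height. A fold of 5 or more in both lists was found in 22 of the 2154 regions. No share over all double positive peaks with that fold in both lists is given here, so nothing is read from this count.

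The ends of the ratio were chosen after their values were seen. The largest, 6.09, was at chr7:37397095-37397294, with 13 double positive reads (6.92 to 22.2) and 93 GFP only reads (75.1 to 114). It was followed by chr5:58925800-58926033 with 15 and 93 reads, a ratio of 5.28. The smallest, 0.306, was at chr14:35941803-35942324, with 39 double positive reads (27.7 to 53.3) and 14 GFP only reads (7.65 to 23.5). The region chr20:28240884-28241202 followed with 38 and 14 reads, a ratio of 0.314. In each of these regions the weaker list was close to the fewest reads that the caller accepted.

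The regions were narrow in the double positive list and somewhat wider in GFP only. Median width was 251 bp in double positive (quartiles 211 and 314, widest 843 bp), against 353 bp over the whole list. In 357 regions (16.6%) the peak was 200 bp wide, the narrowest width in the list, as were 5.56% of all double positive peaks. The partner peaks in GFP only had a median width of 302 bp (quartiles 235 and 407), against 341 bp over that list. The GFP only peak was the wider in 1408 regions (65.4%) and the narrower in 710, with a median ratio of 1.17. At under 20 double positive reads the median ratio was 1.19 in the regions (n = 1695), 1.17 in those of all reporter-positive fractions (n = 1919) and 1.32 in those of all 4 lists (n = 11828). The widest region, chr4:39708385-39709227, had 18 double positive and 17 GFP only reads.

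**Figure D2:**
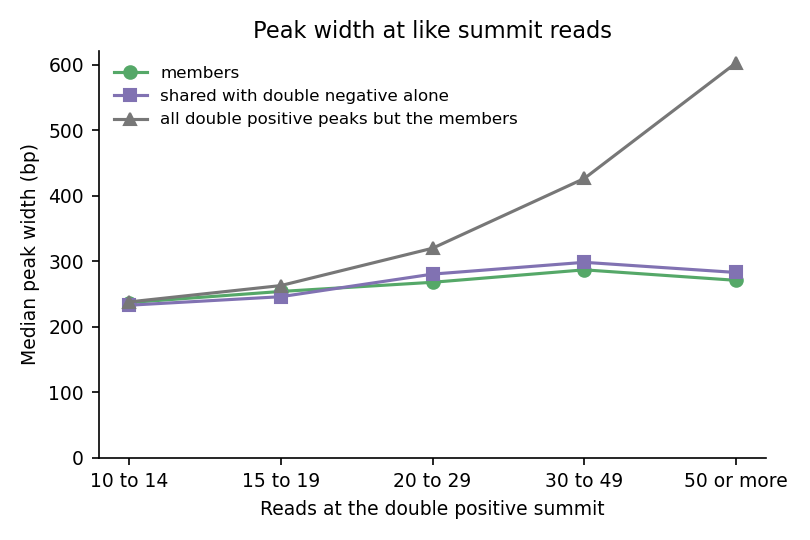
Median width in bp (vertical) of double positive peaks by the reads at their summit (horizontal), for the regions of both GFP-positive lists, for those shared with double negative alone, and for all double positive peaks but the former. Up to 19 reads the medians are close, and from 20 reads the first 2 sets stay under 300 bp while the other peaks widen to 603 bp.

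At like reads the regions differed in width from other double positive peaks where reads were many. With 10 to 14 reads the median width was 237 bp in the regions (n = 750) and 238 bp in all other double positive peaks. With 15 to 19 reads these medians were 254 (n = 945) and 263 bp, with 20 to 29 reads 268 (n = 365) and 320 bp, and with 30 to 49 reads 287 (n = 79) and 427 bp. With 50 reads or more they were 271 (n = 15) and 603 bp. The peaks that double positive shared with double negative alone, a set of like size (2257 peaks), had 233, 246, 281, 299 and 283 bp in the same order. Both sets were narrow where reads were many. Both were chosen to overlap no peak of certain lists, and a wide peak is more likely to overlap one. Most of the peaks they are set against met no such rule, since 56302 of the 90687 double positive peaks were of all 4 lists. Peaks of like reads can also differ in expected background. In double positive it was 12.0 to 93.8 reads in the 10 regions of largest geometric mean height, against a median of 4.34 over the whole list. Why the sets were narrower was not tested, and nothing is read from their lower width, at like reads or against the whole list.

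The rule asked the peaks of the 2 lists to overlap, so their closeness is given as a description and is not a finding. The median overlap was 200 bp, or 82.3% of the double positive peak (quartiles 60.6 and 100%), and 581 double positive peaks lay wholly inside their partner. The summits were a median of 76 bp apart (quartiles 27 and 151). They lay within 50 bp of each other in 845 regions and within 100 bp in 1300, but over 300 bp apart in 149. Of the 2145 partner peaks, 2007 were themselves free of the GFP-negative lists. The other 138 overlapped a peak of mCherry only (48), of double negative (50) or of both (40) outside the double positive peak. Just inside the rule, 31 regions overlapped their partner by 20 bp or less, and the smallest overlap was 2 bp, as at chr13:48376425-48376624 with 13 reads. A further 23 regions had a GFP-negative peak 20 bp away or less. In 2 of them, chr5:43947371-43947580 with 19 reads and chr8:22408310-22408524 with 16, that peak adjoined with 0 bp between. Just outside it, 14 peaks of double positive alone missed a GFP only peak by 20 bp or less, as chr15:9574879-9575124 did by 1 bp with 15 reads. The overlap with 1 GFP-negative list was 20 bp or less in 39 peaks, as at chr10:38042411-38042674, where it was 1 bp with 17 reads.

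The regions were spread thinly along the chromosomes. The nearest other region of the set lay a median of 206 kb away between summits (205919 bp, quartiles 77683 and 416113), while 89 regions (4.13%) had none within 1 Mb. The peaks shared with double negative alone had a median of 185832 bp. The larger classes are denser by number: 60222 bp for the 7190 peaks of double positive alone and 29176 bp for the 8847 shared with mCherry only alone. Within 10 kb of another region lay 117 regions (5.43%), against 4.87% of the peaks shared with double negative alone. Within 1 kb lay 52 (2.41%) against 24 (1.06%). Most of these 52 were neighbouring double positive peaks under 1 wide GFP only peak. In all, 34 regions shared their partner with another region, and 18 of the 52 did not (0.836%). In the set shared with double negative 10 of 24 shared a partner and 14 did not (0.620%).

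**Figure D3:**
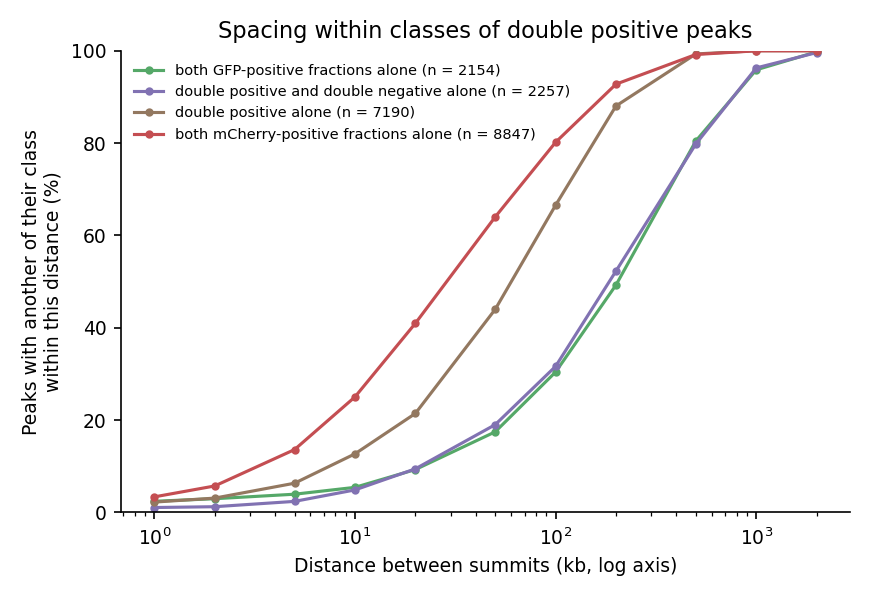
Share of double positive peaks (vertical, %) that have another peak of their own class within a given distance between summits (horizontal, kb, log axis), for 4 classes. From 10 kb the curve of the regions of both GFP-positive lists follows that of the peaks shared with double negative alone, reaching 30.4% and 31.6% at 100 kb. There both lie below the larger classes. At 1 kb the regions are at 2.41%, against 1.06% for the peaks shared with double negative alone and 2.24% for double positive alone.

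Runs were rare. Chained over gaps of at most 20 kb between summits, 1954 regions (90.7%) stood alone, 92 pairs formed, and 5 runs held 3 or more regions. In the set shared with double negative alone 90.6% stood alone, with 93 pairs and 9 runs of 3 or more. The regions formed 0 runs of 5 or more, as did that set, while the larger set shared with mCherry only had 52. The longest run held 4 regions in 19274 bp, at chr21:42047971-42067244. The double positive list had 4 peaks there and GFP only 4, while mCherry only and double negative had 0. Double positive reads in its 4 regions were 20, 16, 15 and 20 from left to right, and GFP only reads were 29, 17, 19 and 17. The nearest mCherry only peak lay 7937 bp from the last of them. The first and the last lay above the upper quartile of the set in double positive, and the first did so in GFP only too.

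The other 4 runs held 3 regions each. That at chr19:22849120-22871623 also had 0 peaks of mCherry only and 0 of double negative, with double positive reads of 16, 25 and 28 and GFP only reads of 18, 39 and 32. Its nearest GFP-negative peak lay 11853 bp away. The run at chr16:25529276-25554741 held the strong region of chromosome 16 named above and regions with 44 and 20 double positive reads, among 4 peaks of mCherry only and 3 of double negative. At chr20:25309348-25322193 the first 2 regions lay under 1 GFP only peak of 74 reads, with 17 and 20 double positive reads, and the third had 18 and 40. The run at chr4:48344836-48362023 had 14, 20 and 17 double positive and 19, 21 and 25 GFP only reads.

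The regions lay on all 25 chromosomes, and chromosome 4 stood apart. On the other 24 chromosomes they made up 1.61% (chromosome 23, 57 of 3538 peaks, interval 1.25 to 2.08) to 2.77% (chromosome 8, 107 of 3862, 2.30 to 3.34) of the double positive peaks. On chromosome 4 they were 168 of 4180 peaks (4.02%, 3.46 to 4.66). The excess lay beyond 25 Mb, on the part of the chromosome known in zebrafish as a heterochromatic long arm, rich in repeats and in duplicated gene families. There 129 of 2126 double positive peaks belonged to the set (6.07%, 5.13 to 7.16), against 39 of 2054 on the first 25 Mb (1.90%, 1.39 to 2.59) and 2.30% on all other chromosomes. In windows of 5 Mb along chromosome 4 the share was 1.52% to 2.14% in the 5 windows up to 25 Mb. It was 3.81% from 25 to 30 Mb, 5.84% from 30 to 35 Mb, and highest from 40 to 45 Mb, with 25 of 316 peaks (7.91%, 5.42 to 11.4).

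**Figure D4:**
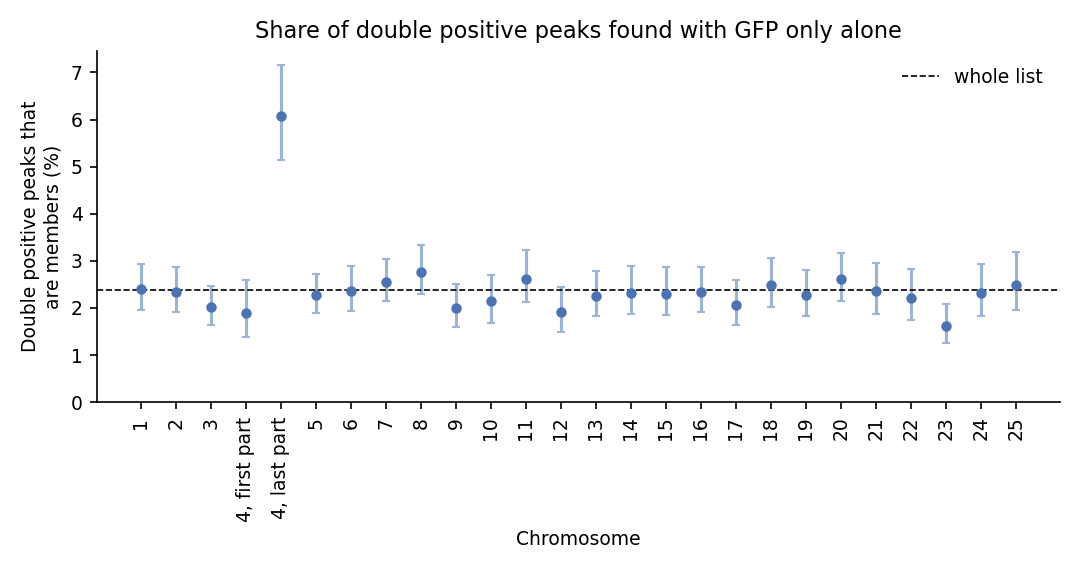
Percentage of double positive peaks that belong to the set (vertical) on each chromosome, with chromosome 4 divided at 25 Mb. Points are shares of the list, bars are Wilson 95% intervals (counting error only), and the dashed line is the share of the whole list, 2.38%. The last part of chromosome 4, at 6.07%, lies above the interval of every other point.

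The excess on the long arm of chromosome 4 was also present at like reads. Among double positive peaks with 10 to 14 reads, 41 of 316 belonged to the set there (13.0%, 9.71 to 17.1), against 7.66% elsewhere (7.13 to 8.22). With 15 to 19 reads it was 67 of 721 (9.29%, 7.38 to 11.6) against 4.51% (4.23 to 4.81), and with 20 to 29 reads 18 of 621 (2.90%, 1.84 to 4.54) against 1.62% (1.46 to 1.79). Only 3 regions of the arm had 30 reads or more. Of the 599 regions with −log10 q of 5 or more in double positive, 28 lay on the arm (4.67%, 3.25 to 6.67), against 1.75% of all double positive peaks past that threshold. Of the 344 that passed it in both lists, 11 did (3.20%, 1.79 to 5.63). No share over all double positive peaks that pass it in both lists is given here to set beside this.

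**Figure D5:**
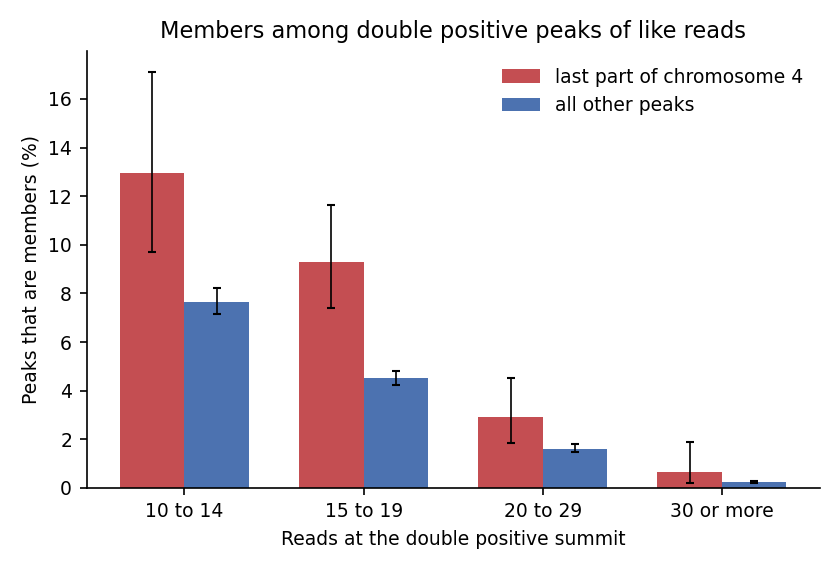
Percentage of double positive peaks that belong to the set (vertical) by the reads at the summit (horizontal), on chromosome 4 beyond 25 Mb and for all other peaks. Bars are shares of the list and lines are Wilson 95% intervals (counting error only). The share is higher on chromosome 4 beyond 25 Mb in each bin, and the intervals are apart below 20 reads and from 20 to 29 reads.

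Before reads were taken into account, the arm also held a larger share of other classes absent from mCherry only than of the whole list. It held 5.99% of the regions of both GFP-positive lists (5.06 to 7.07), 9.14% of the peaks in all lists but mCherry only (7.98 to 10.5), 4.21% of those shared with double negative alone (3.46 to 5.12) and 3.02% of those of double positive alone (2.65 to 3.44). The share was 2.25% for all reporter-positive fractions, 1.10% for peaks shared with mCherry only alone, 2.09% for peaks of all 4 lists, and 2.34% for the whole double positive list. At 10 to 14 reads, peaks in all lists but mCherry only made up 17.4% of the arm (13.6 to 22.0) and 6.38% of the rest (5.90 to 6.90). These shares were 12.1% and 4.59% at 15 to 19 reads, 6.60% and 1.54% at 20 to 29, and 1.92% and 0.242% at 30 or more. In each bin this class had a larger share of the arm than the set had. Peaks shared with double negative alone made up 9.18% (6.47 to 12.9) and 8.20% (7.66 to 8.77) at 10 to 14 reads. Those peaks were the larger share of the arm in the other bins too. They made up 6.38% (4.82 to 8.41) and 4.66% (4.37 to 4.96) at 15 to 19 reads. The shares were 2.74% (1.72 to 4.34) and 1.76% (1.59 to 1.94) at 20 to 29, and 0.641% and 0.313% at 30 or more. Peaks of double positive alone were not the larger share of the arm in every bin. They made up 21.5% of the arm and 23.9% of the rest at 10 to 14 reads, 15.7% and 13.98% at 15 to 19, 5.48% and 6.34% at 20 to 29, and 0.427% and 1.76% at 30 or more.

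Members on the arm resembled the others in signal. Medians were 16 double positive and 19 GFP only reads on the arm and elsewhere, with a median width of 251 bp in both. A GFP only height of 10 was reached in 4 of the 129 (3.10%), against 5.28% elsewhere. By geometric mean of fold the leading ones, chosen after their values were seen, were chr4:46526635-46526996 with 14 double positive and 48 GFP only reads, and chr4:38083446-38083696 with 18 and 30. Members on the arm lay closer to each other, a median of 92805 bp apart against 217867 bp elsewhere. Of the 129, 12 had another within 10 kb, against 105 of the 2025 elsewhere. Spacing depends on how densely members lie, and no other class on the arm is given beside it, so nothing is read from it.

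Peaks of the GFP-negative lists were seldom far from the regions. The nearest peak of either list lay a median of 2138 bp away between edges (quartiles 715 and 4748). It was within 500 bp of 423 regions (19.6%) and within 1000 bp of 655 (30.4%). In peaks of double positive alone, which are absent from the same 2 lists, the median was 2164 bp and the shares 16.5% and 27.3%. The nearest mCherry only peak lay a median of 3654 bp away and the nearest double negative peak 2806 bp. The peaks shared with double negative alone had a median distance of 3343 bp to mCherry only. In that set 15.4% had a mCherry only peak within 500 bp, against 12.6% in the regions of both GFP-positive lists.

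Some regions stood apart from any GFP-negative peak. In 169 (7.85%) none lay within 10 kb between edges, against 5.97% of the peaks of double positive alone. The farthest, chosen after the values were seen, was chr1:34723127-34723419, 42.3 kb from a double negative and 44.3 kb from a mCherry only peak, with 14 double positive (7.65 to 23.5) and 21 GFP only reads (13.0 to 32.1). The next, chr1:58322972-58323198, lay 42.2 kb from mCherry only and had 16 and 15 reads, and chr7:53452595-53452803 lay 38.3 kb away with 17 and 21 reads. These isolated regions had signal near the median of the set.

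The neighbourhood in the double positive list itself was sparser than that of an average peak. The nearest other double positive summit lay a median of 6003 bp away, against 4535 bp for all double positive peaks and 6104 bp for those shared with double negative alone. That neighbour was a peak of all 4 lists for 1168 regions (54.2%, where such peaks are 62.1% of the list) and another region of the set for 122 (5.66%, where the set is 2.38% of the list). For peaks shared with double negative alone, 56.5% had a neighbour of all 4 lists and 4.39% one of their own class, which is 2.49% of the list. Neighbours of the same class can include peaks under 1 shared partner, which were 34 in the regions and 10 in the other set. A GFP only peak called in no other list had its summit within 10 kb of 824 regions (38.3%), against 34.4% for peaks shared with double negative alone and 34.2% for all double positive peaks. A double negative peak called in no other list did so for 978 regions (45.4%), against 53.2% and 40.3%, and a mCherry only one for 503 (23.4%), against 20.9% and 22.7%. Peaks of double positive alone, which have no partner list, were close to the regions in the first 2 of these shares, at 37.9% for GFP only and 45.3% for double negative. These differences were not tested. Without chromosome 4 the share near a GFP only peak called in no other list was 38.2% for the regions and 33.6% for the set shared with double negative.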

How the data were processed

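Chromatin accessibility (ATAC-seq) was measured in 12 samples, 3 in each of 4 sorted fractions, and the labels name 1 list of peaks for all samples of a fraction. The danRer7 build, MACS2 2.1.0 and Bowtie2 2.2.1 are named in the submitters' processing notes. For caller settings, read filters, Tn5 offsets and pooling the answer is the same: not given in the sources used here. The authors deposited for each peak a display score (not used further), a fold (a linear ratio over expected background), −log10 p and −log10 q, and a summit offset in bp. Coordinates are danRer7, printed 1-based.

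Reads and expected background at a summit were recovered as the whole number that gives the deposited fold, with a pseudocount of 1, and −log10 p under a Poisson tail. The largest misfit over the lists was 0.000382 in −log10 p, and any other whole number was off by 0.00808 or more. No source states this pileup model, which rests on that match, and reads at a summit are not the depth of a library, which is unknown. Overlaps, distances and intervals were computed with Python 3.11.15, pandas 2.3.3 and SciPy 1.17.1, and the code was tested on simulated data. Wilson and exact Poisson 95% intervals cover counting error only. Groups were taken from sample titles. The members, comparison sets and measures were chosen with earlier results of these data known. The regions named are the 10 of highest geometric mean height, the longest run and the edges of the overlap rule, and exceptions are marked. Alternatives changed the overlap rule, thresholds, list length, distances and scaling. No genome sequence or annotation of danRer7 was used here.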

Additional observations from a re-analysis of the deposited data

How the results depend on the processing

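No paired analysis was possible because each fraction is 1 list for its 3 samples. Fits without single replicates were not possible for the same reason. A value counts as kept where it stayed inside its 95% interval (counts within 1.5 times), and an interval of a median is that of order statistics over regions.

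The number of regions moved most. It was 3905 with reciprocal overlap of 50%, 884 with −log10 q of 5 or more in every list, 344 with that threshold in double positive and GFP only, and 3274 with lists of equal length. These shared 1431, 344, 344 and 759 regions with the 2154 reported. The 8 other alternatives gave 1501 to 2216. A threshold on the 2 partner lists alone can only remove regions.

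Under the same 4 settings, in that order, median double positive height was 4.68, 5.51, 5.78 and 4.68. Median GFP only height was 5.16, 5.63, 6.10 and 5.86, and median width 266, 298, 265 and 273 bp. A threshold on −log10 q selects stronger peaks, so nothing is read from the higher heights under it. The intervals of the median heights had no width (4.41 to 4.41 and 4.46 to 4.46), so any change in them counts as not kept. The ratio of GFP only to double positive height was 0.986 with −log10 q of 5 or more in every list, 1.22 with equal length and 1.03 with the summit rule. Counted as GFP only peaks, median width was 290 bp. With the expected background at most 2 times the lowest, added after seeing the data, the heights were 4.13 and 4.22 and the distance to a GFP-negative peak 2301 bp. Between summits that distance was 2488 bp. Runs of 5 or more numbered 2 with equal length and 0 in the other settings that ask for 5, and there were 5 runs of 3 or more.

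The share on chromosome 4 beyond 25 Mb was 3.99% with reciprocal overlap, 3.20% with the threshold in the 2 partner lists and 8.67% with equal length. It was 5.54% to 7.01% in the other 10 alternatives. The cause of these changes was not tested. Equal length keeps double positive whole and shortens the other lists.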

Other observations

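Outside chromosome 4, 1 window of 5 Mb had a higher share of regions of both GFP-positive lists than any window of chromosome 4. It was the first 5 Mb of chromosome 7, where 15 of 180 double positive peaks belonged to the set (8.33%, Wilson interval 5.11 to 13.3), against a median of 2.25% over 278 windows with 100 double positive peaks or more. The 15 regions had 12 to 19 double positive and 14 to 30 GFP only reads, so none was strong. Next outside chromosome 4 came chromosome 11 from 10 to 15 Mb, with 20 of 332 peaks (6.02%, 3.93 to 9.12). Of the 8 windows with the highest shares, 5 lay on chromosome 4. These windows were picked by their values and no test was run. Within 1 Mb of the outermost peaks of a chromosome lay 94 of the 2154 regions (4.36%), against 5.01% of all double positive peaks.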
